A study of Mus musculus with 4 samples.

Results

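Inward rectifier and two-pore potassium channels set the resting potential of cells and carry the background potassium current that holds neurons away from firing threshold. Here 10 of the 23420 genes in the count table were followed, chosen by name as members of these 2 channel families: the GIRK subunit genes *Kcnj3*, *Kcnj6* and *Kcnj9*, the Kir2 gene *Kcnj4*, the astrocytic genes *Kcnj10* and *Kcnj16*, and the two-pore genes *Kcnk1*, *Kcnk2*, *Kcnk4* and *Kcnk9*. RNA was sequenced from punches of prefrontal cortex (PFC) of C57BL6/J mice that had received an AAV9 virus into the PFC. The 2 control samples came from mice given GFP AAV9, which the paper calls a scrambled shRNA AAV, and the 2 *Ash1L* shRNA samples from mice given a GFP-tagged AAV9 carrying a hairpin against the histone methyltransferase gene *Ash1l*. The hairpin was driven by the U6 promoter, which is active in all cell types, so any infected cell could carry it, and punches were taken where GFP fluoresced, without sorting of infected cells. Sources differ on the animals: in the methods of the paper, mice were injected at 5 weeks and tissue of 3 mice was pooled per sample, while the series text lists 3 mice with the hairpin and 2 control mice, aged 6-8 weeks. The labels call the samples of a group biological duplicates.

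Inward rectifier (Kir) channels are tetramers that pass potassium more readily into the cell than out of it. GIRK channels are Kir channels that open when Gi/o-coupled receptors, such as GABA-B, adenosine A1 and serotonin 1A receptors, release G protein beta-gamma subunits, and they produce slow inhibition in cortical neurons. Kir4.1, the product of *Kcnj10*, alone or with Kir5.1 from *Kcnj16*, carries the potassium conductance by which astrocytes clear potassium that active neurons release. Two-pore (K2P) channels are dimers that leak potassium at rest, and acid, stretch, lipids and anaesthetics regulate different members.

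Counts summed to between 14251190 and 35764874 per sample, and all 10 genes passed the filter on low counts with the 16232 genes tested. The lowest count of any of the 10 genes in a sample was 149, and counting error alone was therefore at most 8.19% of a value and at least 1.35%. Levels are given as CPM, read counts scaled to a common library size after TMM normalization. *Ash1l* itself had 245 and 290 CPM in control samples 1 and 2, and 216 and 138 CPM in *Ash1L* shRNA samples 1 and 2, a log2 fold change of -0.60 (P of 0.0362 and adjusted p of 0.275 in edgeR). The vesicular glutamate transporter gene *Slc17a7*, a marker of cortical excitatory neurons, had 754 to 1070 CPM in every sample, so the labelled tissue was not contradicted.

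The 10 genes lie on several autosomes in the mm10 annotation (GENCODE vM21). *Kcnj9* (ENSMUSG00000038026, chromosome 1 from 172320501 to 172329318, minus strand) and *Kcnj10* (ENSMUSG00000044708, chromosome 1 from 172341210 to 172374085, plus strand) are neighbours that are transcribed away from each other, with start sites 11.9 kb apart. *Kcnj9* encodes the neuronal subunit GIRK3 and *Kcnj10* the glial Kir4.1. Their promoters are shown with that of *Kcnj4* (ENSMUSG00000044216, chromosome 15 from 79483714 to 79505241, minus strand), because *Kcnj9* and *Kcnj4* had the largest differences in level between the groups while the groups overlapped for *Kcnj10*. Each runs from 250 bases before to 50 bases after the start annotated by RefSeq on GRCm38.p6, 5′ to 3′ on the strand of the gene. Capitals mark each match on either strand, adjoining matches run together, and 3 motifs were found in these windows. The GC box is spelled GGGCGG. The motif spelled TATAAA is known as the TATA box, and CCAAT is the third.
Kcnj9 (chr1:172329273-172329572): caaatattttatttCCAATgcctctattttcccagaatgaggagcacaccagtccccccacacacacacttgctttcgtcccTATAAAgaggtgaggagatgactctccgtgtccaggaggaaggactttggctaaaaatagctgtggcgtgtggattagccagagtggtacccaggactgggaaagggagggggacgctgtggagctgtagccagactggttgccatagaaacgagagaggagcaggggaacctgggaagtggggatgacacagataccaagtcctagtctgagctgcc
Kcnj10 (chr1:172340960-172341259): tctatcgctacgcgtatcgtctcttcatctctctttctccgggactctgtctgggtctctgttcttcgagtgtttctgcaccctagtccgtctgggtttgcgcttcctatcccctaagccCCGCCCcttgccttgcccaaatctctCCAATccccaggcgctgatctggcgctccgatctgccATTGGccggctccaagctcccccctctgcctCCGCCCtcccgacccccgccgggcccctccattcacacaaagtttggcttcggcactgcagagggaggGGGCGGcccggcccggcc
Kcnj4 (chr15:79505192-79505491): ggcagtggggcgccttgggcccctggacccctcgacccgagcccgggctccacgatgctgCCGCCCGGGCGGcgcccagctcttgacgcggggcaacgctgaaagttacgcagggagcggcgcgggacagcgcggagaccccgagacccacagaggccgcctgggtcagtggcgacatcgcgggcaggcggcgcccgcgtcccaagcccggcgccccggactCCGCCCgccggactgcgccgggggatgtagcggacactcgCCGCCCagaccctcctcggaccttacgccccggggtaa
The promoter of *Kcnj9* held 5 CpG dinucleotides, 1 TATA box, 1 CCAAT and 0 GC boxes. That of *Kcnj10* held 21 CpG, 3 GC boxes and 2 CCAAT matches, and that of *Kcnj4* held 41 CpG and 4 GC boxes, with the other motifs at 0. Among all 32851 promoters of this length, the median was 7 CpG, and 35.7% held a GC box, 13.6% a TATA box and 37.4% CCAAT. The promoters of the genes with the largest differences were thus unlike each other in base composition. A match describes the letters of the window and not binding there. Of the 10 genes, 9 had at least 1 promoter in the table, with 16 windows in all, and the cAMP response element TGACGTCA was found in 0 of the 16 windows and in 1.79% of all promoters.

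In the comparison of *Ash1L* shRNA with control samples, 9 of the 10 genes had lower levels and 1, *Kcnk1*, a higher one. By the limits of the study, an unadjusted P under 0.05 and at least a 1.2-fold change, 4 of the 10 genes (*Kcnj9*, *Kcnj4*, *Kcnj16* and *Kcnk2*) were DOWN, where 8.28% of all genes tested were DOWN, and 0 were UP, where 8.61% of all genes were UP. The median log2 fold change of the 10 genes was -0.36, beside 0 over all genes tested. In 6 of the 10 genes the groups were fully separated, with the hairpin samples lower, as in 26.8% of all genes tested. After Benjamini-Hochberg adjustment over all genes, 0 of the 10 passed 0.05 in edgeR's quasi-likelihood test (0.00616% of all genes did), with adjusted p-values from 0.26 to 0.864, and 4 had an unadjusted p under 0.05 (16.9% of all genes). *Kcnj9* passed the adjusted limit with DESeq2 (adjusted p of 0.0187) and with edgeR's likelihood ratio test (adjusted p of 0.0486), and it was the only one of the 10 to do so in those fits. These tests called more genes in all, 420 of 20177 with DESeq2 and 479 of 16232 with the likelihood ratio test, against 1 in the quasi-likelihood test. The genes were picked with results of these samples known, so these counts describe them and do not test them as a family.

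**Figure D1:**
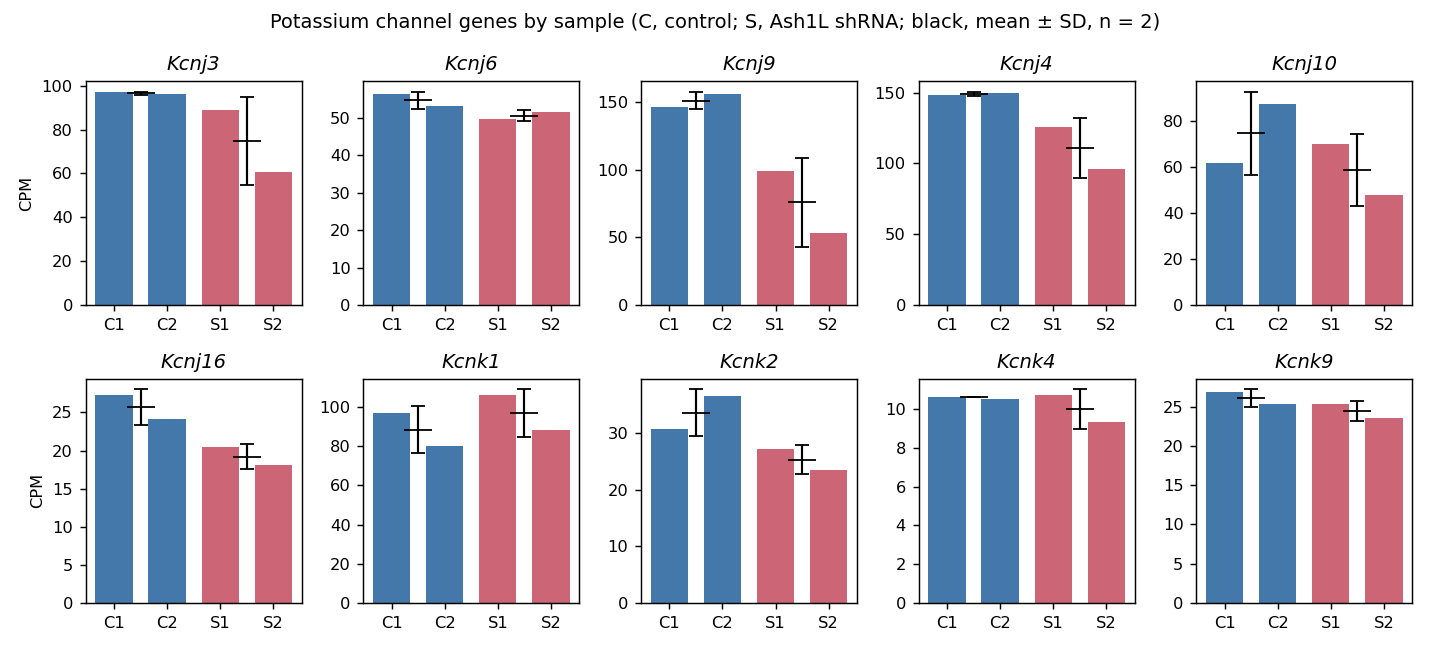
CPM of each of the 10 genes (vertical axis, from 0) in control samples C1 and C2 (blue bars) and *Ash1L* shRNA samples S1 and S2 (red bars), with the mean ± SD of each group in black (n = 2). The bars of *Kcnj9* drop from 146 and 156 CPM to 99.3 and 52.9 CPM, while those of *Kcnj6*, *Kcnk4* and *Kcnk9* stay within a few CPM of each other.

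The 3 GIRK genes had differences of unequal size. *Kcnj9*, for GIRK3, a subunit that assembles with other GIRK subunits, had 146 and 156 CPM in the control samples and 99.3 and 52.9 CPM in *Ash1L* shRNA samples 1 and 2. Both *Ash1L* shRNA samples were far below both controls, and sample 2 was the lower. The group means were 151 ± 6.49 and 76.1 ± 32.8 CPM (SD, n = 2), which is 49.5% lower (log2 fold change -0.99, SE 0.29, P of 0.0142 and adjusted p of 0.26 in edgeR). The raw counts behind these levels were 2066 and 5456 in control and 2720 and 1097 in *Ash1L* shRNA samples. Without control sample 2, *Kcnj9* was no longer DOWN (log2 fold change of -0.95), and with *Ash1L* shRNA sample 1 or 2 left out, the log2 fold change was -1.52 or -0.60.

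*Kcnj3* (ENSMUSG00000026824, chromosome 2 from 55435970 to 55598145) encodes GIRK1, which needs a partner subunit to reach the membrane. Its levels were 97.1 and 96.0 CPM in control and 89.1 and 60.5 CPM in *Ash1L* shRNA samples. The groups did not overlap, but most of the difference came from *Ash1L* shRNA sample 2, and *Kcnj3* missed the limit (log2 fold change -0.37, SE 0.19, P of 0.0972 in edgeR). Without *Ash1L* shRNA sample 1 it was -0.68 and called DOWN, and without sample 2 it was -0.11. Of the exonic bases of *Kcnj3*, 31.1% are shared with an antisense long noncoding RNA, *Gm26794*, and the strand setting of the counting is not given in the sources used here, so reads from either could be in its count.

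*Kcnj6* (ENSMUSG00000043301, chromosome 16 from 94748636 to 94997701) encodes GIRK2, which can form channels by itself and anchors GIRK channels at synapses. Its levels were 56.2 and 53.0 CPM in control and 49.5 and 51.6 CPM in *Ash1L* shRNA samples. All 4 values lay close together, with both *Ash1L* shRNA samples slightly below both controls. *Kcnj6* did not pass the test (log2 fold change -0.11, SE 0.11, P of 0.365 in edgeR). Between the *Ash1L* shRNA samples, *Kcnj6* was the only one of the 10 genes to be lower in sample 1, and 9 were lower in sample 2, as were 52.2% of all genes tested.

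The makeup of the pool of GIRK transcripts was compared within each sample. Per kilobase of exon, *Kcnj9* made up 56.8% and 58.9% of the 3 GIRK genes in control samples, and 49.6% and 40.2% in *Ash1L* shRNA samples 1 and 2. *Kcnj6* made up 12.3% and 11.3% in control, and 13.9% and 22.0% in *Ash1L* shRNA samples. The share of *Kcnj3* was 31.0% and 29.9% in control, and 36.6% and 37.8% in *Ash1L* shRNA samples. In all 3 genes the groups did not overlap, but the shares add up to a whole, so a lower share of 1 gene raises the others. The ratio of *Kcnj9* to *Kcnj6* per length was 4.63 and 5.22 in control and 3.57 and 1.83 in *Ash1L* shRNA samples, a comparison within each library that does not depend on scaling. For *Kcnj3* to *Kcnj6* the ratio was 2.53 and 2.65 in control and 2.63 and 1.72 in *Ash1L* shRNA samples, so the groups overlapped. The shares themselves depend on the length used. With the longest transcript of each gene, *Kcnj9* made up 52.7% and 55.0% in control and 45.6% and 34.7% in *Ash1L* shRNA samples. These shares and ratios are given without a test. The smallest two-sided p of an exact permutation test on 2 against 2 samples is 0.333.

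**Figure D2:**
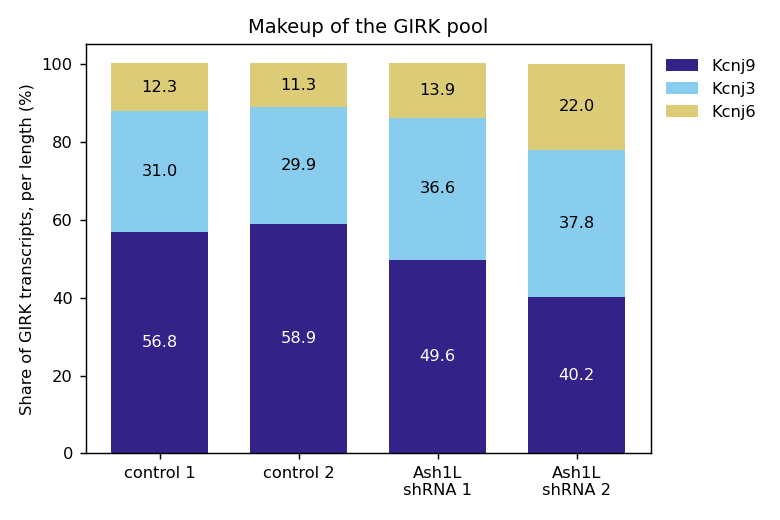
Share of each GIRK gene (%, vertical axis) in the sum of *Kcnj9*, *Kcnj3* and *Kcnj6* levels per kilobase of exon, 1 stacked bar per sample. The *Kcnj9* share (dark, bottom) is 56.8% and 58.9% in the control samples and 49.6% and 40.2% in the *Ash1L* shRNA samples.

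*Kcnj4* encodes Kir2.3, a strongly rectifying channel of forebrain neurons that is found near excitatory synapses. It had 148 and 150 CPM in control and 126 and 96.0 CPM in *Ash1L* shRNA samples. The controls were almost equal and both *Ash1L* shRNA samples lay below them. *Kcnj4* was DOWN, from 149 ± 1.56 to 111 ± 21.1 CPM (SD, n = 2; log2 fold change -0.43, SE 0.15, P of 0.0289 and adjusted p of 0.263 in edgeR). It was not DOWN without control sample 1 (-0.43), control sample 2 (-0.42) or *Ash1L* shRNA sample 2 (-0.24), nor with an offset for GC content (-0.34).

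The levels of the neuronal channel genes were set beside neuronal markers measured in the same libraries. All 10 excitatory neuron markers had lower levels, with a median log2 fold change of -0.42. Of the 10, 5 were DOWN (*Neurod6*, *Neurod2*, *Tbr1*, *Fezf2* and *Camk2a*), where 8.28% of all genes tested were. It was 4 with a length offset and 3 with upper-quartile scaling. The summed level of the 10 was 2980 to 3480 CPM in control and 2230 to 2730 CPM in *Ash1L* shRNA samples, and no marker of the list was at 0. With an offset for GC content, 1 of them, *Cux2*, was higher. Of 10 general neuron markers, 6 were lower and 1, the vesicle protein gene *Syt1*, was DOWN, with a median of -0.12. Their summed level was 8210 to 8380 CPM in control and 6540 to 7460 CPM in *Ash1L* shRNA samples. Channel levels were then taken relative to the mean log2 level of the markers in the same sample, with the control mean set to 0. Relative to the excitatory neuron markers, *Kcnj9* stood at -0.33 and -0.87 in *Ash1L* shRNA samples 1 and 2, with controls at 0.01 and -0.01. *Kcnj4* stood at 0.03 and 0.01 and *Kcnj3* at 0.16 and -0.03 on that scale, and their groups overlapped, with controls at 0.04 and -0.04 and at 0.06 and -0.06. *Kcnj6* stood above its controls (0.10 and -0.10), at 0.13 and 0.56. Relative to the general neuron markers, the *Ash1L* shRNA samples lay below the controls for *Kcnj9* (-0.54 and -1.36, controls -0.06 and 0.06), for *Kcnj4* (-0.18 and -0.49, controls -0.03 and 0.03) and for *Kcnj3* (-0.05 and -0.53, controls -0.01 and 0.01). *Kcnj6* overlapped with its controls on this scale. *Kcnj9* was thus lower relative to the mean of each list, whereas for *Kcnj4* and *Kcnj3* the outcome depended on the list. Single excitatory neuron markers ran from -0.05 (*Cux2*) to -0.85 (*Fezf2*) in log2 fold change, beside -0.99 for *Kcnj9*. In bulk tissue, fewer cells of a type and less RNA per cell cannot be told apart.

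**Figure D3:**
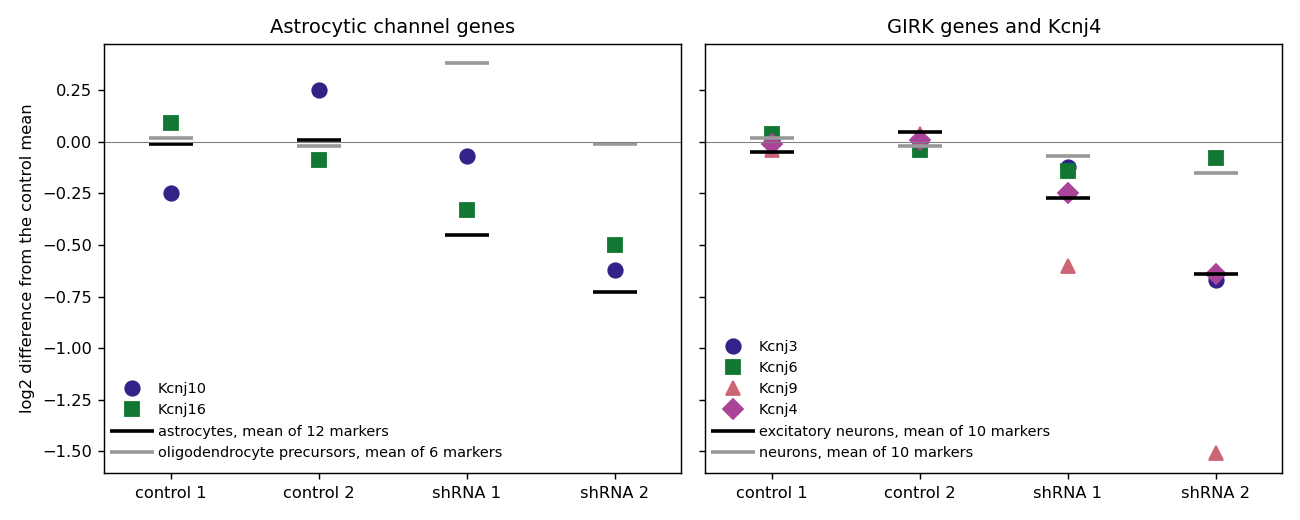
Difference of each gene's log2 CPM from the control mean (vertical axis) in the 4 samples, with the mean difference of cell type markers as horizontal bars. *Kcnj10* and *Kcnj16* (left) lie above the astrocyte bar in both *Ash1L* shRNA samples, and *Kcnj9* (right, triangles) lies at -0.60 and -1.51, below the excitatory neuron bar at -0.27 and -0.64.

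The 2 astrocytic genes were lower on average, and only 1 of them was DOWN, where 8.28% of all genes tested were. *Kcnj16* (ENSMUSG00000051497, chromosome 11 from 110968033 to 111027968) encodes Kir5.1, which forms channels with Kir4.1 and makes them sensitive to pH. Its levels were 27.3 and 24.1 CPM in control and 20.4 and 18.1 CPM in *Ash1L* shRNA samples. The groups did not overlap, and *Kcnj16* was DOWN from 25.7 ± 2.32 to 19.2 ± 1.61 CPM (SD, n = 2; log2 fold change -0.41, SE 0.15, P of 0.0298 and adjusted p of 0.265 in edgeR). The call was lost in DESeq2 (P of 0.0517) and without control sample 1 (-0.31), control sample 2 (-0.51) or *Ash1L* shRNA sample 2 (-0.33). *Kcnj10* had 61.6 and 87.2 CPM in control and 69.7 and 47.7 CPM in *Ash1L* shRNA samples. Here the groups overlapped, since *Ash1L* shRNA sample 1 lay between the controls. *Kcnj10* did not pass the test (log2 fold change -0.34, SE 0.24, P of 0.2 in edgeR). The value depended on single samples, at -0.65 and called DOWN without *Ash1L* shRNA sample 1, -0.56 without control sample 1, -0.10 without *Ash1L* shRNA sample 2 and -0.07 without control sample 2. The ratio of *Kcnj10* to *Kcnj16* per length was 1.64 and 2.64 in control and 2.49 and 1.92 in *Ash1L* shRNA samples, so the groups overlapped for the ratio as well.

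Astrocyte markers were lower in the same libraries. Of 12 markers, 8 were DOWN (7 with a length offset), where 8.28% of all genes tested were, and 9 had lower levels. Their median log2 fold change was -0.65, with a summed level of 5650 to 5960 CPM in control and 3370 to 4540 CPM in *Ash1L* shRNA samples. The most abundant, the glutamate transporter gene *Slc1a2*, had a log2 fold change of -0.47, and the glycolytic enzyme gene *Aldoc* one of -1.18. None of the markers was at 0. Levels were also taken relative to the mean log2 level of these markers in the same sample, with the control mean set to 0. On that scale, *Kcnj16* stood at 0.12 and 0.23 in *Ash1L* shRNA samples, against 0.10 and -0.10 in control samples. *Kcnj10* stood at 0.38 and 0.11, against -0.24 and 0.24. *Kcnj16* was therefore lower in CPM but not relative to the mean of the astrocyte markers. The 3 markers without lower levels, *Gfap*, *Sox9* and *Aqp4*, had log2 fold changes of 0, 0.06 and 0.11, beside -0.41 for *Kcnj16*. Its outcome thus depended on the markers used. Oligodendrocyte precursors, which also express *Kcnj10* and *Kcnj16*, had 5 of 6 markers higher and 2 UP (*Pdgfra* and *Sox10*; 4 with library-size scaling and 3 with a length or GC offset), with a median of 0.31 and sums of 245 to 251 CPM in control and 243 to 319 CPM in *Ash1L* shRNA samples. Oligodendrocyte markers summed to 2780 to 3170 CPM in control and 2620 to 2980 CPM in *Ash1L* shRNA samples, with a median of -0.26. Of these 10 markers, 8 were lower (7 with library-size scaling or a length offset) and 2 were DOWN (3 with a length offset).

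Genes that act with Kir4.1 in astrocytes differed among themselves. Of 7 genes for ion and transmitter clearance, 6 had lower levels (median -0.57). Of the 7, 5 were DOWN (4 with a length offset), where 8.28% of all genes tested were. Among those DOWN were *Slc1a2*, the second glutamate transporter gene *Slc1a3* (log2 fold change -0.94), the glutamine synthetase gene *Glul* (-0.81) and the bicarbonate cotransporter gene *Slc4a4* (-0.71). *Slc1a2* and *Slc1a3* are also among the astrocyte markers. Of 6 genes of the endfoot complex that anchors Kir4.1 and aquaporin at blood vessels, 4 were lower (3 with an offset for GC content) and 1, the dystroglycan gene *Dag1*, was DOWN at -0.37. The aquaporin gene *Aqp4* had 231 and 200 CPM in control and 210 and 254 CPM in *Ash1L* shRNA samples, and the dystrophin gene *Dmd* had a log2 fold change of -0.15.

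Of the 4 two-pore genes, 1 was DOWN, where 8.28% of all genes tested were. The groups overlapped in the other 3. Among all genes tested, 26.8% had both *Ash1L* shRNA samples below both controls and 26.5% had both above. *Kcnk2* (ENSMUSG00000037624, chromosome 1 from 189207930 to 189402273) encodes TREK-1, a leak channel opened by stretch, fatty acids and volatile anaesthetics. It had 30.7 and 36.5 CPM in control and 27.1 and 23.5 CPM in *Ash1L* shRNA samples. Both *Ash1L* shRNA samples lay below both controls, and *Kcnk2* was DOWN from 33.6 ± 4.08 to 25.3 ± 2.54 CPM (SD, n = 2; log2 fold change -0.41, SE 0.15, P of 0.0333 and adjusted p of 0.269 in edgeR). It was not DOWN without control sample 2 (-0.29) or *Ash1L* shRNA sample 2 (-0.32), or with the replicate number as a block (P of 0.0654). An antisense gene, *A430027H14Rik*, shares 12.2% of its exonic bases. Relative to the excitatory neuron markers of the same sample, *Kcnk2* stood at -0.03 and 0.13, against -0.07 and 0.07 in control samples. Relative to the general neuron markers it stood at -0.24 and -0.36, below the controls at -0.15 and 0.15, so its outcome also depended on the list.

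*Kcnk1* (ENSMUSG00000033998, chromosome 8 from 125995170 to 126030685) encodes TWIK-1, a weakly conducting channel of neurons and astrocytes. Its levels were 97.1 and 80.1 CPM in control and 106 and 88.2 CPM in *Ash1L* shRNA samples. The samples of the groups interleaved, and the log2 fold change of 0.13 (standard error 0.15) changed sign to -0.01 without control sample 2 and to -0.01 without *Ash1L* shRNA sample 1. *Kcnk9* (ENSMUSG00000036760, chromosome 15 from 72501089 to 72546340), an imprinted gene for the acid-sensitive channel TASK-3, had 26.9 and 25.3 CPM in control and 25.4 and 23.6 CPM in *Ash1L* shRNA samples, with a log2 fold change of -0.09 (standard error 0.13). *Kcnk4* (ENSMUSG00000024957, chromosome 19 from 6923966 to 6934515) encodes TRAAK, a mechanically gated channel at nodes of Ranvier. It had 10.6 and 10.5 CPM in control and 10.7 and 9.31 CPM in *Ash1L* shRNA samples, with a log2 fold change of -0.07 (standard error 0.19) that changed sign to 0.03 without *Ash1L* shRNA sample 2. *Kcnk4* shares 13.1% of its exonic bases with *Catsperz* on the same strand, counted here under its older symbol *Tex40* at 4.98 CPM in control and 5.91 CPM in *Ash1L* shRNA samples. None of these 3 genes passed the test (P of 0.409, 0.516 and 0.709 for *Kcnk1*, *Kcnk9* and *Kcnk4* in edgeR), which does not show that their levels were equal. Relative to the excitatory neuron markers, both *Ash1L* shRNA samples stood above both controls in all 3. *Kcnk1* stood at 0.53 and 0.64 (controls 0.19 and -0.19). *Kcnk9* stood at 0.23 and 0.50 (controls 0.10 and -0.10), and *Kcnk4* at 0.30 and 0.46 (controls 0.05 and -0.05). Relative to the general neuron markers, *Kcnk1* was also above its controls, at 0.32 and 0.15 (controls 0.12 and -0.12). On that scale the groups overlapped for *Kcnk9* and *Kcnk4*.

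Levels were compared between genes only per kilobase of exon. *Kcnj4* was highest in every sample, at 68.8 and 69.8 CPM per kb in control and 58.5 and 44.6 CPM per kb in *Ash1L* shRNA samples. *Kcnk1* came next on average, at 41.5 CPM per kb over the 4 samples, followed by *Kcnj9* at 26.5. These exchanged places between samples: *Kcnj9*, at 36.3 CPM per kb, was above *Kcnk1* at 35.9 in control sample 2 and below it in the other samples. In *Ash1L* shRNA sample 2, *Kcnj9* had 12.3 CPM per kb beside 11.6 for *Kcnj3*. *Kcnj3* and then *Kcnj10* followed in every sample, at means of 16.4 and 12.3 CPM per kb. *Kcnj6*, *Kcnk2* and *Kcnj16* had means of 6.89, 5.96 and 5.71 CPM per kb, and their values overlapped. *Kcnk4* and *Kcnk9* were lowest in every sample, at 2.30 and 2.06 CPM per kb. With the longest transcript as the length, *Kcnj6* moved up to 14.5 CPM per kb, above *Kcnj10*, and the other genes kept their order.

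**Figure D4:**
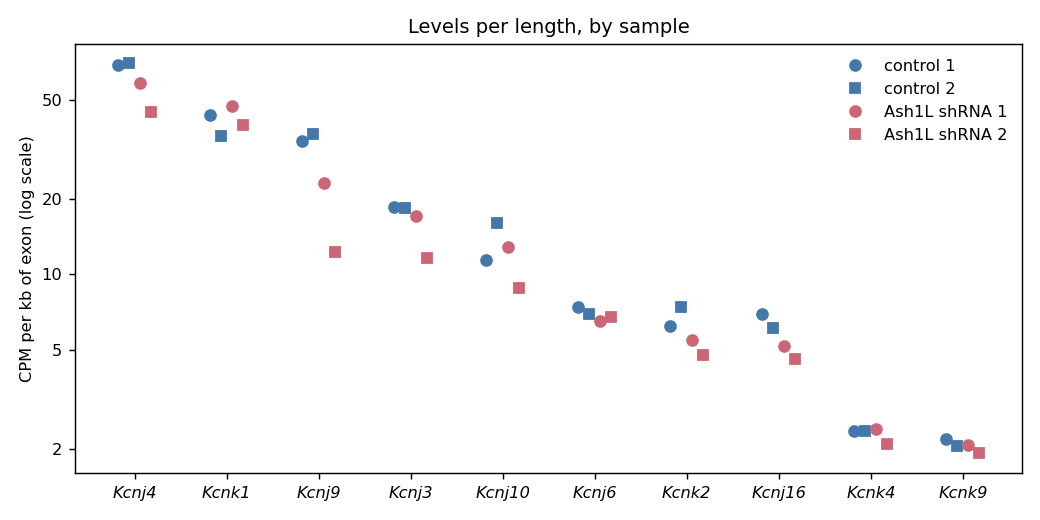
CPM per kilobase of exon (log axis) of the 10 genes, ordered by their mean, with control samples in blue and *Ash1L* shRNA samples in red (circles, sample 1; squares, sample 2). *Kcnj4* is highest at 44.6 to 69.8 CPM per kb, *Kcnk4* and *Kcnk9* are lowest near 2, and the red points of *Kcnj9* lie well below its blue points.

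The rest of both families was looked at in the same fit. Of the 9 other inward rectifier genes, 7 were tested, 5 of them had lower and 2 higher levels, and 0 were DOWN or UP, with a median log2 fold change of -0.10. The most abundant were *Kcnj11*, the pore of ATP-sensitive channels, at 42.0 to 51.4 CPM, and *Kcnj2*, for Kir2.1, at 34.2 to 51.2 CPM, and the groups overlapped in both. The sulfonylurea receptors that pair with ATP-sensitive pores went opposite ways. *Abcc8*, the neuronal one, had 40.8 and 36.3 CPM in control and 31.1 and 23.9 CPM in *Ash1L* shRNA samples and was DOWN (log2 fold change -0.49). *Abcc9*, the vascular one, had 15.2 and 15.3 CPM in control and 20.8 and 19.6 CPM in *Ash1L* shRNA samples and was UP (0.41). Pericyte markers, whose cells express *Abcc9*, had 2 of 5 lower (3 with a length offset) and 0 called (1 UP with library-size scaling), with a median of 0.01 and sums of 167 to 183 CPM in control and 154 to 193 CPM in *Ash1L* shRNA samples. Endothelial markers had 3 of 7 lower (2 with library-size scaling or an offset for GC content) and 1 UP, *Kdr*, with a median of 0.06 and sums of 257 to 291 CPM and 270 to 303 CPM.

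All 7 of the other two-pore genes tested, out of 10 listed, had higher mean levels in *Ash1L* shRNA samples, also under each scaling tried. Both *Ash1L* shRNA samples were above both controls in only 3 of these 7, as in 26.5% of all genes tested, and in the rest the groups overlapped. The median log2 fold change of the 7 was 0.36, and 2 were UP (1 with an offset for GC content), where 8.61% of all genes were UP. *Kcnk10*, which encodes TREK-2, the close relative of TREK-1, had 14.7 and 11.7 CPM in control and 16.6 and 20.3 CPM in *Ash1L* shRNA samples (log2 fold change 0.49, SE 0.19, P of 0.0432 and adjusted p of 0.285 in edgeR). *Kcnk7* had only 2, 6, 12 and 22 counts in control samples 1 and 2 and *Ash1L* shRNA samples 1 and 2. *Kcnk3*, for the acid-sensitive channel TASK-1, had 23.6 and 16.3 CPM in control and 22.8 and 28.1 CPM in *Ash1L* shRNA samples, so the groups overlapped, and *Kcnk6* had 11.3 and 11.1 CPM, then 13.9 and 12.4 CPM. Over the whole Kcnk family, 3 of 11 genes tested were lower, 1 was DOWN and 2 were UP. Of 13 Kcnj genes, 11 were lower, 3 were DOWN and 0 were UP. Among all genes tested, 50.3% were lower, 8.28% DOWN and 8.61% UP. These family counts include the 10 genes, which were picked with results known, and do not test a difference between the families.

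**Figure D5:**
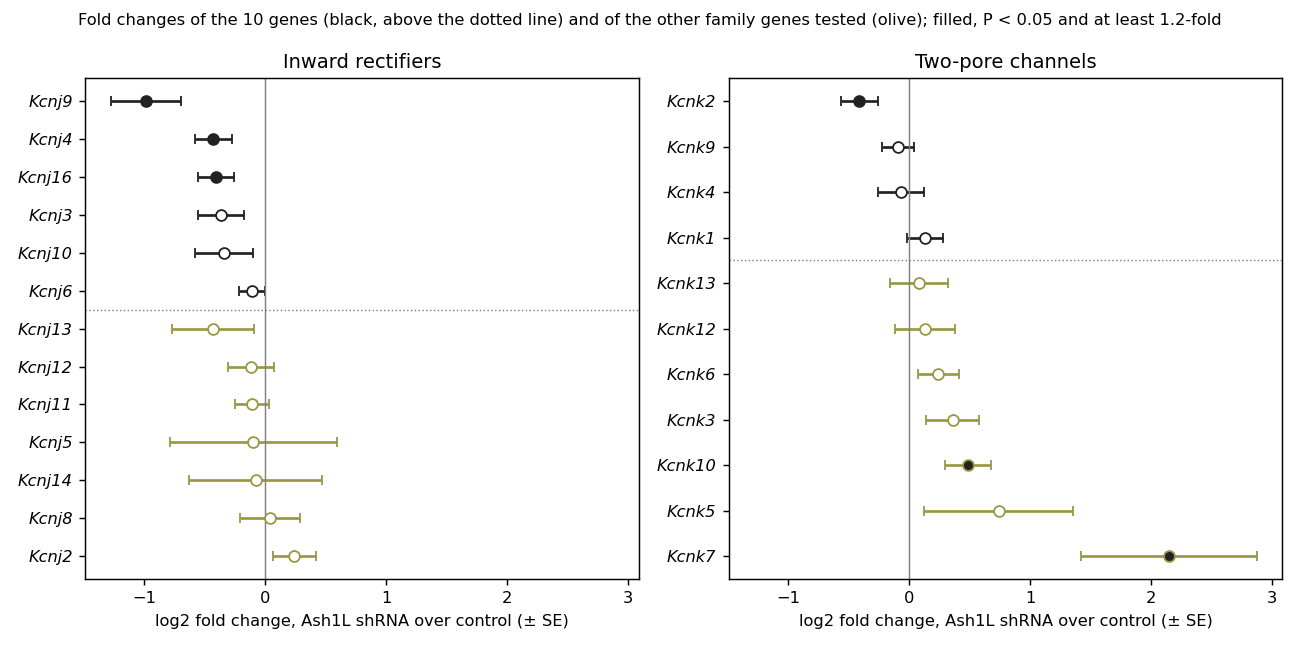
Log2 fold change ± SE (horizontal axis, *Ash1L* shRNA over control) of the 10 genes (black, above the dotted lines) and of the other tested genes of each family (olive), with dark filled points for P under 0.05 and at least 1.2-fold. *Kcnj9*, at -0.99, lies farthest to the left, and the 7 olive two-pore genes all lie at higher levels in *Ash1L* shRNA samples.

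Upstream of GIRK channels, receptor genes were split. Of 10 genes for receptors that open these channels, 5 were lower and 5 higher, with a median log2 fold change of -0.05. Of these 10, 3 were DOWN and 2 were UP, where 8.28% and 8.61% of all genes tested were. *Gabbr1*, the most abundant, had 841 and 790 CPM in control and 829 and 870 CPM in *Ash1L* shRNA samples, while its partner in the GABA-B receptor, *Gabbr2*, had 322 and 334 CPM and then 261 and 254 CPM and was DOWN (-0.35). *Htr1a*, the serotonin 1A receptor gene, was DOWN at -0.66, and the cannabinoid receptor gene *Cnr1* at -0.35, close to the limit at P of 0.0498 (edgeR), and the list held 2 DOWN genes with upper-quartile or library-size scaling or a length offset. *Adora1*, for the adenosine A1 receptor, had 194 and 170 CPM in control and 218 and 241 CPM in *Ash1L* shRNA samples and was UP (0.33), as was the low dopamine receptor gene *Drd2*, with 0.921 and 0.969 CPM and then 1.42 and 3.28 CPM. Striatal markers moved in part with *Drd2*: 3 of 7 tested were lower and 4 higher, 1 was DOWN and 1 UP (*Rgs9*), with a median of 0.07, and they summed to 110 to 125 CPM in control, 117 CPM in *Ash1L* shRNA sample 1 and 181 CPM in sample 2. Their part in the levels of *Drd2*, *Kcnj4* and *Kcnk2* was not tested.

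Of 18 genes for G proteins and regulators of GIRK channels, 13 were lower, with a median of -0.27. Among all genes tested, 8.28% were DOWN and 8.61% UP. Of the 18, 5 were DOWN (4 with upper-quartile scaling and 6 with an offset for GC content) and 1 was UP. Those with the smallest P were *Gnao1*, the main G protein alpha subunit of neurons (log2 fold change -0.52), *Snx27*, a sorting protein that binds GIRK2 and GIRK3 tails (-0.55), *Gng3*, a neuronal gamma subunit (-0.65), and *Kctd16*, an auxiliary subunit of GABA-B receptors (-0.41). *Gnb5*, the partner of the RGS proteins that end the GIRK response, was the other DOWN gene at -0.70. *Gng2*, another gamma subunit gene, was UP at 0.29 and was not called with an offset for GC content. The most abundant were *Rgs4*, with 505 and 616 CPM in control and 618 and 993 CPM in *Ash1L* shRNA samples, and *Gnb1*, with 563 and 621 CPM and then 519 and 406 CPM, and neither passed the test.

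The remaining cell classes gave smaller or uneven differences. Interneuron markers had 5 of 8 lower and 3 DOWN (*Pvalb*, *Sst* and *Lhx6*; 2 with upper-quartile scaling or an offset for GC content), a median of -0.31 and sums of 710 to 792 CPM in control and 674 to 696 CPM in *Ash1L* shRNA samples. Microglia markers had 6 of 8 lower and 0 called, with sums of 627 to 647 CPM in control, 756 CPM in *Ash1L* shRNA sample 1 and 318 CPM in sample 2, so the *Ash1L* shRNA samples stood on both sides of the controls. *Ash1L* shRNA sample 2 had the lower values of *Ash1l* and of 9 of the 10 channel genes, where 52.2% of all genes tested were lower in sample 2. The marker sums of all cell classes listed were also lower in sample 2 than in sample 1, except the striatal sum (117 CPM in sample 1 and 181 CPM in sample 2). The part of cell makeup in the channel values was not tested beyond the within-sample comparisons given above.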

How the data were processed

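RNA of PFC punches was sequenced as paired ends from a stranded, ribosome-depleted total RNA kit. Per the paper, RNA STAR placed the reads on mm10 and featureCounts counted them by gene. The deposited values are these read counts by symbol, left unscaled by the authors. The labels instead name Cutadapt and TopHat2. The strand and multiple-mapping settings of the counting are not given in the sources used here.

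Samples were grouped by their labels. Genes were filtered with filterByExpr, scaled with TMM and tested in edgeR 4.0.16 (R 4.3.3) by the quasi-likelihood F test with robust estimation and no covariates, with Benjamini-Hochberg adjustment over 16232 genes. The study used DESeq2, run here (1.42.0) as an alternative. Standard errors are the absolute log2 fold change over the square root of F. DOWN and UP mean an unadjusted P under 0.05 and at least 1.2-fold. CPM values are not logged. Levels per length used the merged exons of GENCODE vM21. Values relative to markers are log2 differences from the mean log2 CPM of the list in the same sample. The mean of the control samples was then subtracted, so controls average 0. Older symbols were matched through RefSeq synonyms, and 98.9% of tested genes had a length and GC content.

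The members and lists were chosen with earlier results of these data known. Named besides the members were the called genes of each pathway list (at most 4 by P) and its 2 most abundant, with up to 2 abundant markers per class. Others, such as *Gnb5*, *Kcnk3*, *Kcnk6*, *Gfap*, *Sox9* and called or sign-changing markers, were named after their values were seen. Replicates differed by more than counting error, with a chi-square per degree of freedom of 15.5 in control and 44.6 in *Ash1L* shRNA samples. Across genes, the deviations of same-numbered samples had a correlation of -0.104, and no source pairs them. Alternatives were DESeq2, the likelihood ratio test, 3 scalings, 2 filters, length and GC offsets, the replicate block, leaving out single samples and a limit of 1.5-fold. Some genes of the lists are not reported here by name. Matplotlib drew the figures.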

Additional observations from a re-analysis of the deposited data

How the results depend on the processing

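Of the 10 genes, 4 were DOWN, and with DESeq2, other scalings, other filters, the offsets and the replicate block the number was 3 or 4. In those fits, 6.28% to 8.28% of all genes tested were DOWN. With a 1.5-fold limit the number was 1, where 3.02% of all genes were DOWN. With an adjusted p under 0.05 over all genes it was 0, where 0.00616% of all genes passed in either direction. Leaving out single samples gave 0 to 6, given here with the share of all genes DOWN in the same fit: 2 and 4.14% without control sample 1, 0 and 1.86% without control sample 2, 6 and 16.5% without *Ash1L* shRNA sample 1, and 1 and 5.05% without *Ash1L* shRNA sample 2, beside 8.28% with all samples. Fewer samples entered those fits, and the lone sample of a group was assumed to vary like the pair. The number UP stayed at 0 in all of these. The median log2 fold change of -0.36 lay between -0.37 and -0.32 in the fits with all samples and between -0.52 and -0.13 with 1 left out, the weakest without *Ash1L* shRNA sample 2. Only *Kcnk1* (-0.01 to 0.28) and *Kcnk4* (-0.18 to 0.03) changed sign, each with a sample left out. Relative to astrocyte markers, the log2 difference of *Kcnj10* between *Ash1L* shRNA and control samples was 0.24, and it ran from 0 to 0.49 with 1 sample left out. That of *Kcnj16* was 0.17 and ran from 0.07 to 0.27. With the replicate number as a block, 3 genes were DOWN, *Kcnk2* losing its call, and the block changed no other call. With the numbers crossed, chosen after seeing the data, 6 were DOWN and 0 UP, where 10.7% and 9.49% of all genes were. Counting error was at most 8.19% of any value of these genes, and the spread between 2 samples a group limits what can be detected.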
